A study of Mus musculus with 6 samples.

Results

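MITF, TFEB, TFE3 and TFEC form a small family of transcription factors, and their genes Mitf, Tfeb, Tfe3 and Tfec were chosen here by gene name. Each of the 4 names matched 1 of the 49315 genes in the table, and all 4 passed the filter of a mean of at least 1 TPM that left 12325 genes for testing. The RNA-Seq compares bone marrow macrophages (BMMs) of wild-type mice at day 0 with mature osteoclasts formed from such cells over 4 days, with 3 libraries in each group. BMMs were flushed from long bones and expanded with a culture supernatant that supplies M-CSF, and the osteoclasts received 75 ng/mL RANKL with a smaller share of that supernatant. Both groups carry the wild-type genotype, while the sources used here do not give the strain, age or sex of the mice. No library was kept for 4 days without RANKL, so the cytokine, the M-CSF supply and the days in culture cannot be told apart. The replicates are described as biological, with no animal or culture named, and a p-value thus covers only the spread among these 6 libraries, which may be technical.

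The family binds DNA through a basic helix-loop-helix leucine zipper, as homodimers or as heterodimers with one another. Its proteins recognize E-boxes and related M-boxes. In osteoclasts MITF and TFE3 act with PU.1 and NFATc1 on genes of bone resorption, and TFEB drives lysosomal genes of the CLEAR network. Much of the control lies in the proteins, since kinases at the lysosome hold them in the cytoplasm and phosphatases release them to the nucleus. TPM, a share of all transcripts that is scaled by gene length and sums to 1000000 in each library, measures only the RNA, and it pools the transcripts of a gene. The several Mitf isoforms, which start at different first exons, were therefore not resolved.

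The labelled cell types were checked against marker genes. All 11 osteoclast markers were higher in osteoclasts, with a summed level of 696 to 755 TPM in BMM libraries and 39828 to 40118 TPM in osteoclast libraries. Of 10 macrophage markers 9 were lower and 1, Cd68, was higher as deposited but not after median-ratio scaling, and their sum was 6886 to 7027 TPM and 4790 to 5630.0 TPM. Stromal markers summed to 7.34 to 7.69 TPM in BMM libraries and 111 to 138 TPM in osteoclast libraries. Of the 9 listed, the collagens Col1a1, Col1a2 and Col3a1 were higher, at osteoclast means of 85.6, 34.0 and 6.09 TPM. Runx2 was not called, and the other 5 did not pass the filter. The part of stromal markers in the results was not tested. Libraries of 1 group correlated at 0.987 to 0.996 and libraries of different groups at 0.883 to 0.890 across genes, so none stood apart from its group.

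In the TPM as deposited, 3 of the 4 factors had similar RNA levels in BMMs and osteoclasts. Tfe3 was lower in osteoclasts. With limma and a threshold of 0.05 on the adjusted p, 1 of the 4 members was called as deposited, against 68.9% of all genes tested, and 2 were called after the median-ratio scaling described next, against 67.1%. Groups did not overlap for that 1 member, against 73.5% of all genes tested. With the TPM as deposited, the typical gene had a log2 fold change of 0.19 (median of all genes tested). Median-ratio scaling removes such a common shift. It moved that median to 0.003 and placed each member about 0.2 lower on the log2 scale. Fold changes of the members are given on both scales for that reason.

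Mitf encodes the founding member of the family, and some of its mutations in mice cause osteopetrosis. The gene (ENSMUSG00000035158) lies on chromosome 6 of GRCm38 from 97807052 to 98021349 on the plus strand, with 8 annotated transcripts. Mitf measured 33.1, 35.4 and 36.3 TPM in BMM replicates 1, 2 and 3 and 40.3, 33.3 and 32.2 TPM in osteoclast replicates 1, 2 and 3. The highest and the lowest of the 6 values were both osteoclast libraries, so the groups overlapped. BMMs averaged 34.9 ± 1.66 TPM, and osteoclasts 35.3 ± 4.39 TPM (SD, n = 3). The log2 fold change was 0.01 (95% interval -0.20 to 0.22, adjusted p = 0.93 from limma). After median-ratio scaling it was -0.20 (95% interval -0.38 to -0.02), still not called (adjusted p = 0.053 from limma). The sign thus depended on the scaling. The interval, unlike the adjusted p, takes no account of the number of genes tested. A processed pseudogene, Gm15531, lies within Mitf on the other strand and reached at most 0.278 TPM in any library.

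Tfeb encodes the factor best known for lysosome biogenesis and autophagy. It lies on chromosome 17 of GRCm38 from 47737030 to 47792419 (ENSMUSG00000023990). Tfeb measured 25.1, 24.7 and 26.6 TPM in the BMM replicates and 22.1, 22.9 and 26.7 TPM in the osteoclast replicates, in the order 1, 2, 3. Osteoclast replicate 3 matched the highest BMM library, and the other two osteoclast libraries lay below all BMM libraries. The log2 fold change of Tfeb was -0.09 (95% interval -0.28 to 0.10, adjusted p = 0.35 from limma). The gene was called lower after median-ratio scaling (log2 fold change -0.30, adjusted p = 0.019 from limma) and without osteoclast replicate 3 (log2 fold change -0.17, adjusted p = 0.037 from limma).

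Tfe3, which overlaps in function with Mitf in mouse osteoclasts, was the 1 member called lower in the TPM as deposited. The gene (ENSMUSG00000000134) lies on chromosome X of GRCm38 from 7762560 to 7775202. Tfe3 measured 48.6, 46.1 and 48.2 TPM in BMM replicates 1, 2 and 3 and 33.3, 30.7 and 35.4 TPM in osteoclast replicates 1, 2 and 3. Every osteoclast library lay below every BMM library. The means were 47.6 ± 1.32 TPM and 33.1 ± 2.32 TPM (SD, n = 3), a ratio of osteoclasts to BMMs of 0.696. The log2 fold change was -0.51 (SE 0.07, limma adjusted p = 2.1e-04), and -0.72 after median-ratio scaling (adjusted p = 2.9e-05 from limma). Of all genes tested, 53.7% had a smaller absolute log2 fold change, so the size of this change was ordinary for these libraries. Neutrophil markers moved in the same direction. Of the 9 listed 8 passed the filter, and all 8 were lower as deposited, against 23.5% of all genes tested. Their summed level went from 2961 to 3232 TPM in BMM libraries to 14.4 to 26.3 TPM in osteoclast libraries. Of the 10 macrophage markers, 9 were lower as well and 1 was higher as deposited. The part of these markers in the Tfe3 result was not tested. In bulk samples, fewer cells of a type and less RNA per cell cannot be told apart.

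Tfec encodes a member found mainly in macrophages and other myeloid cells, and it was the lowest of the family. It lies on chromosome 6 of GRCm38 from 16833373 to 16898441 on the minus strand (ENSMUSG00000029553). Tfec measured 17.1, 16.9 and 17.2 TPM in the BMM replicates and 17.6, 18.7 and 14.3 TPM in the osteoclast replicates, in the order 1, 2, 3. The osteoclast libraries lay on both sides of the narrow BMM range. The log2 fold change of Tfec was -0.02 (95% interval -0.25 to 0.21, adjusted p = 0.84 from limma). After median-ratio scaling it was -0.23 (95% interval -0.444 to -0.008, adjusted p = 0.064 from limma), and Tfec was called on neither scale. Without osteoclast replicate 3, the log2 fold change as deposited was 0.08 and also not called.

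**Figure D1:**
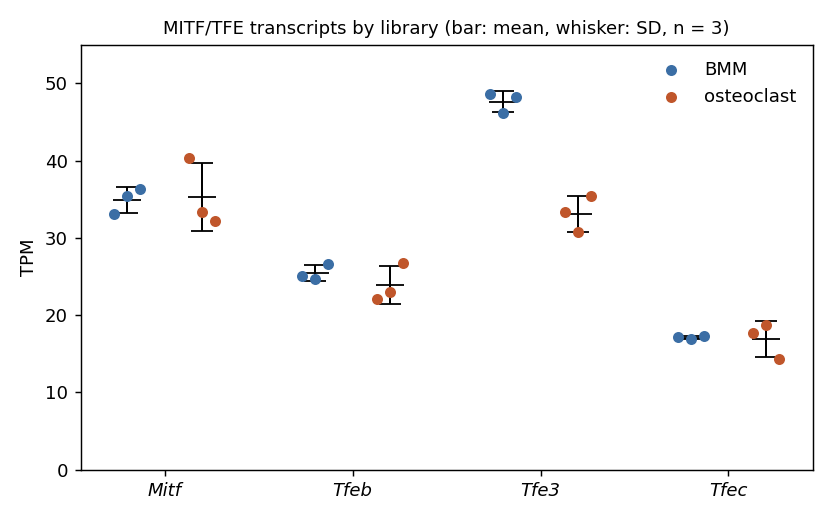
TPM of Mitf, Tfeb, Tfe3 and Tfec in each of 3 BMM and 3 osteoclast libraries (points), with the mean (bar) and SD (whisker) of each group on a linear axis from 0. The 2 groups are apart for Tfe3, at 46.1 to 48.6 TPM against 30.7 to 35.4 TPM, and overlap for Mitf, Tfeb and Tfec.

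The order of the members changed at its top. TPM is scaled by gene length, so levels of different genes can be set side by side. In BMMs the order was Tfe3, Mitf, Tfeb and Tfec, and no 2 neighbours overlapped. In osteoclasts Mitf (32.2 to 40.3 TPM) and Tfe3 (30.7 to 35.4 TPM) overlapped, while Tfeb (22.1 to 26.7 TPM) lay below both and Tfec (14.3 to 18.7 TPM) below Tfeb. The spread was wider in osteoclasts for every member. The coefficient of variation was 1.16% to 4.74% in BMMs and 7.01% to 13.5% in osteoclasts. The highest osteoclast library was replicate 1 for Mitf, replicate 2 for Tfec and replicate 3 for Tfeb and Tfe3, so no single library was high throughout.

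In the TPM as deposited, the sum of the 4 members was 125 ± 2.92 TPM in BMMs, and in osteoclasts it was 109 ± 3.91 TPM (SD, n = 3). Unlike the sum, the shares within it need no scaling between libraries. Tfe3 held 39.2%, 37.5% and 37.6% in BMM replicates 1, 2 and 3 and 29.4%, 29.1% and 32.6% in the osteoclast replicates. Mitf held 26.7%, 28.7% and 28.3% in the BMM replicates and 35.6%, 31.5% and 29.7% in the osteoclast replicates. The share of Tfe3 was thus lower in each osteoclast library than in any BMM library, and the share of Mitf was higher in each. The difference was -7.74 points for Tfe3 and 4.35 points for Mitf, each with p = 0.10 in a two-sided exact permutation test, the smallest p that 3 libraries against 3 allow. Tfeb held 20.3 ± 0.355% and 21.9 ± 2.56% in BMMs and osteoclasts, and Tfec 13.7 ± 0.213% and 15.5 ± 2.26% (SD, n = 3), with p = 0.40 in the same exact test for both. Without 1 library the difference ranged from 2.70 to 5.64 points for Mitf, with the lowest value without osteoclast replicate 1, and from -8.85 to -7.11 points for Tfe3. It ranged from 0.239 points (without osteoclast replicate 3) to 2.79 for Tfeb and from 0.715 points (without osteoclast replicate 2) to 2.97 for Tfec. Shares in 1 sum depend on each other, and 4 were tested.

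**Figure D2:**
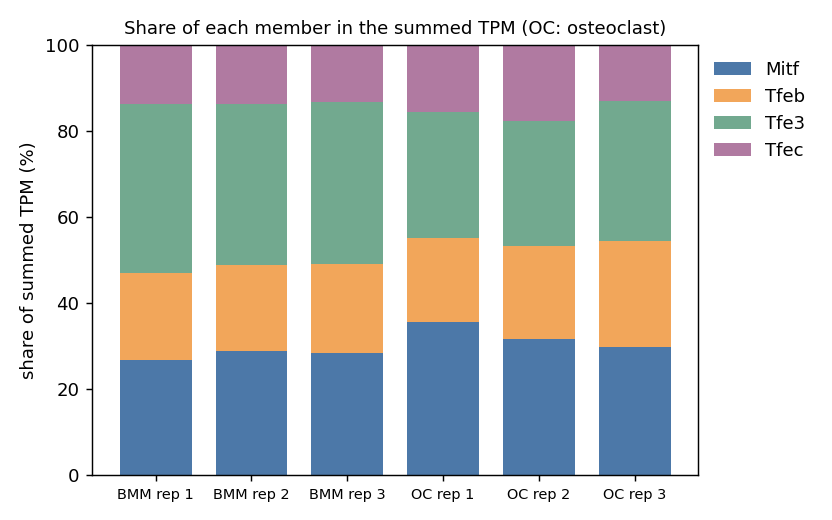
Share (%) of Mitf, Tfeb, Tfe3 and Tfec in their summed TPM, stacked to 100% for each BMM and osteoclast (OC) library. The Tfe3 block holds 37.5% to 39.2% in BMM libraries and 29.1% to 32.6% in osteoclast libraries, and the Mitf block at the base is taller in osteoclast libraries.

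**Figure D3:**
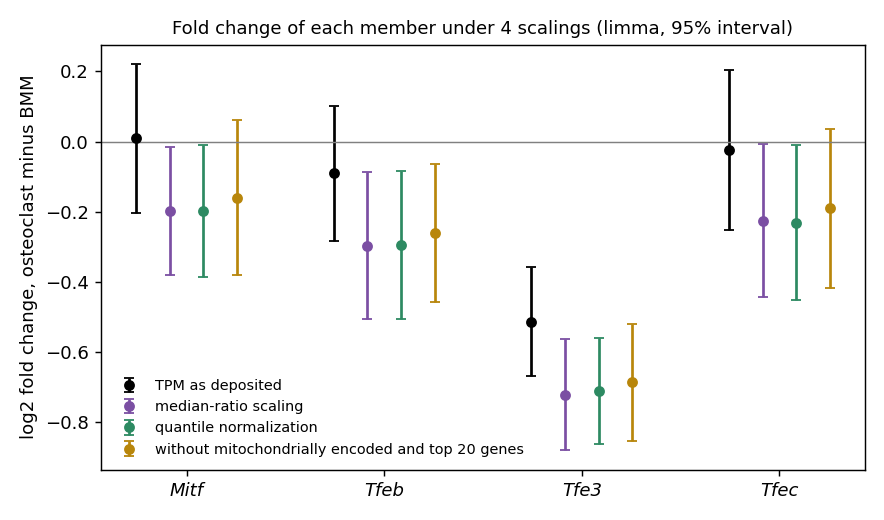
log2 fold change (osteoclast minus BMM) of each member from limma, with its 95% interval, for TPM as deposited, median-ratio scaling, quantile normalization, and TPM rescaled without mitochondrially encoded and the 20 most abundant genes. Tfe3 lies below 0 on all 4 scales, whereas the Mitf and Tfec points lie near 0 as deposited and between -0.16 and -0.23 on the others.

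Genes with the pattern most like each member were taken as those with the smallest root mean square difference of mean-centred log2(TPM + 1) over the 6 libraries. For Mitf they were Gpalpp1, Ids and Slc12a2 (0.02 to 0.03). For Tfeb they were Mon1a, Armc5 and Snx21 (each 0.03). For Tfe3 they were Rgs14, Flot2 and Pacsin2 (each 0.03), which all fell, with log2 fold changes of -0.56, -0.53 and -0.54. For Tfec they were Slbp, Mad2l1 and Cep83os (0.01 to 0.02). This likeness is a description over 6 libraries in 2 groups. The way these genes were chosen already fixes that they changed much as the member did.

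Genes known as targets of the family in osteoclasts mostly rose, although the members did not. Of 9 such genes, 7 were called higher and 2 lower, at a median log2 change of 2.02, against 45.3% higher and 23.5% lower among all genes tested. The counts were the same after median-ratio scaling, against 33.5% higher and 33.6% lower among all genes tested. Several of these genes are also common osteoclast markers, and the list was chosen with earlier results of these data known. Ctsk, the matrix protease cathepsin K, measured 24.0, 26.1 and 27.4 TPM in BMM replicates 1, 2 and 3 and 12643, 13824 and 11462 TPM in the osteoclast replicates. Acp5, which encodes the phosphatase TRAP, measured 52.1 to 55.1 TPM in BMMs and 12705 to 13496 TPM in osteoclasts. Both were among the most abundant RNAs of the osteoclast libraries, at log2 fold changes of 8.88 and 7.90.

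Oscar, an immunoglobulin-like receptor that costimulates osteoclast formation, was close to absent in BMMs. It measured 0.152, 0.0985 and 0.135 TPM in BMM replicates 1, 2 and 3 and 272, 270.4 and 277 TPM in the osteoclast replicates. The log2 fold change was 7.92 (SE 0.06, limma adjusted p = 1.1e-10) on the log2(TPM + 1) scale, which understates the change of so low a gene. Nfatc1, both a target and a partner of MITF, rose from 21.7 ± 0.181 TPM to 125 ± 17.5 TPM (SD, n = 3), and its log2 fold change was 2.46. Atp6v0d2, a V-ATPase subunit needed for fusion of osteoclast precursors, rose from 203 ± 10.3 TPM to 830 ± 90.5 TPM (SD, n = 3), and its log2 fold change was 2.02.

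Clcn7 and Ostm1 encode the lysosomal chloride-proton exchanger and its partner, and loss of either causes osteopetrosis. They moved by different amounts. Clcn7 measured 127, 129.98 and 131 TPM in BMM replicates 1, 2 and 3 and 404, 357 and 438 TPM in the osteoclast replicates, for a log2 change of 1.62 (SE 0.08, limma adjusted p = 4.9e-07). Ostm1 measured 32.9, 33.6 and 34.0 TPM in the BMM replicates and 52.6, 50.5 and 46.0 TPM in the osteoclast replicates, for a log2 change of 0.55 (SE 0.07, limma adjusted p = 1.2e-04). For both genes every osteoclast library lay above every BMM library, and both were called after median-ratio scaling as well, at 1.40 and 0.34.

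Gpnmb and Bcl2 were the targets that fell. Gpnmb, a lysosome-associated glycoprotein whose RNA depends on MITF in mouse osteoclasts and melanocytes, measured 4032, 4126 and 4209 TPM in BMM replicates 1, 2 and 3. In osteoclast replicates 1, 2 and 3 it measured 2987, 2672 and 3217 TPM. It stayed abundant, with a log2 change of -0.48 (SE 0.07, limma adjusted p = 4.0e-04). Bcl2, an inhibitor of apoptosis, went from 3.83 ± 0.192 TPM to 2.05 ± 0.214 TPM (SD, n = 3), a log2 change of -0.67 (SE 0.10, limma adjusted p = 4.4e-04).

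**Figure D4:**
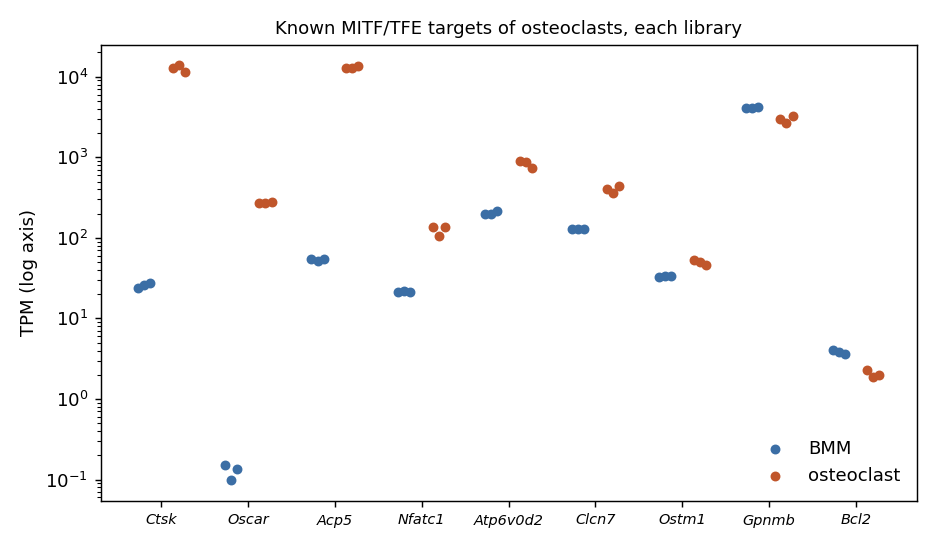
TPM on a log axis of 9 genes known as targets of MITF or its relatives in osteoclasts, 1 point for each of 3 BMM and 3 osteoclast libraries. Ctsk, Oscar, Acp5, Nfatc1, Atp6v0d2, Clcn7 and Ostm1 are higher in every osteoclast library, and Gpnmb and Bcl2 are lower in every one.

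The CLEAR network, the set of lysosomal and autophagy genes that TFEB and TFE3 bind through E-boxes, split in both directions. Of 36 listed genes, all passed the filter, and 18 were higher, 12 were lower and 6 did not pass the test, at a median log2 change of 0.16. After median-ratio scaling 9 were higher and 16 lower, at a median of -0.05, so the balance of the list depended on the scaling. Of all genes tested, 45.3% were higher and 23.5% lower as deposited, and 33.5% and 33.6% after that scaling, so the share of CLEAR genes called higher as deposited was close to the background. Atp6v0e, a V-ATPase subunit, rose from 129.7 ± 3.39 TPM to 301 ± 16.6 TPM (log2 fold change 1.21; SD, n = 3). Clcn7, which is also in this list, had its largest increase.

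The 4 CLEAR genes with the highest level in BMMs, Psap, Ctsd, Ctsb and Lamp1, all fell, as deposited and after median-ratio scaling. Psap, the precursor of the saposins that help to break down sphingolipids, measured 14128, 14426 and 14882 TPM in BMM replicates 1, 2 and 3 and 6449, 6513 and 6933 TPM in the osteoclast replicates. Ctsb, the protease cathepsin B, fell from 9913 ± 193 TPM to 4289 ± 133 TPM, and Lamp1, a major lysosomal membrane protein, from 2585 ± 55.7 TPM to 1197 ± 12.5 TPM (SD, n = 3). Their log2 fold changes were -1.13, -1.21 and -1.11. The summed TPM of the 36 genes accordingly went from 47324 to 49078 in BMM libraries to 29388 to 30404 in osteoclast libraries. Ctsd (cathepsin D), Sqstm1, Map1lc3b and Mcoln1 were chosen after their values were seen. Sqstm1 and Map1lc3b, an autophagy receptor and a ubiquitin-like protein of autophagosomes, had log2 fold changes of -0.42 and -0.34, and both were called lower. Mcoln1, the lysosomal calcium channel that activates calcineurin upstream of TFEB, had a log2 fold change of 0.24 and was called higher, a call that was lost after median-ratio scaling.

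A further group of targets feeds back on the family, since the folliculin complex and the Rag GTPases RagC and RagD bring TFEB and MITF to the lysosome for phosphorylation. Of these 5 genes, 4 were lower and 1, Rragd, was higher, both as deposited and after median-ratio scaling, where 23.5% and 33.6% of all genes tested were lower. With the replicate number as a block, 3 were lower. Rragd measured 7.87, 8.38 and 9.35 TPM in BMM replicates 1, 2 and 3 and 18.0, 17.9 and 16.9 TPM in the osteoclast replicates, a log2 change of 0.97 (SE 0.08, limma adjusted p = 1.4e-05). Rragc, its paralog, went the other way, from 183 ± 3.20 TPM to 146 ± 9.89 TPM (SD, n = 3), and its log2 fold change was -0.32 (adjusted p = 0.0017 from limma). Rragc stayed the far more abundant of the pair. Flcn, which encodes folliculin, fell from 63.9 ± 1.13 TPM to 42.9 ± 3.49 TPM, and its partner Fnip2 from 71.1 ± 0.439 TPM to 37.7 ± 5.13 TPM (SD, n = 3). Fnip1, the other partner, had a log2 fold change of -0.27 and an adjusted p of 0.045 from limma. That call was lost when any 1 of the BMM replicates, osteoclast replicate 2 or osteoclast replicate 3 was left out, at an adjusted p of 0.081 to 0.14. It was also lost with the replicate block (0.057), without the trend (0.058) and with no filter (0.093).

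Short stretches of promoters are shown for targets of each kind, because genes that moved in opposite directions hold the same letters. They come from RefSeq windows on GRCm38.p6 that run from 250 bases before to 50 bases after an annotated start. The letters searched, on both strands, were CACGTG (an E-box), CATGTG (the core of the M-box), TCATGTG (the M-box, which contains CATGTG) and a CLEAR element that is CACGTG preceded by GT and followed by AC. Capitals mark CACGTG, the CLEAR element, and CATGTG or its reverse complement.
Acp5 (chr9:22130671-22130700, minus strand): aagtccagtgctCACATGacccaaggggag
Oscar (chr7:3616158-3616187, minus strand): cctctgttccctaaacaggactctCACATG
Clcn7 (chr17:25133361-25133390, plus strand): gcctccgtcgtcagtCACGTGggcaccgat
Lamp1 (chr8:13159095-13159154, plus strand): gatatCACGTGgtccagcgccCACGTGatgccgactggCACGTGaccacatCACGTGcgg
Cln3 (chr7:126583340-126583369, minus strand): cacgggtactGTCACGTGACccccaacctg
Rragc (chr4:123917309-123917338, plus strand): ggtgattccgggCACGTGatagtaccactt
Fnip1 (chr11:54438092-54438121, plus strand): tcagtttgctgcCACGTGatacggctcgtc
Clcn7 rose and Lamp1 fell, with 1 and 4 copies of CACGTG in these stretches. The stretches differ in length, at 30 bases for Clcn7 and 60 for Lamp1. The same Clcn7 window holds a further CACGTG after the start. Acp5 has 3 windows, and CATGTG stood in 1 of them. Clcn7 and Cln3 have 2 windows each, and for each gene CACGTG stood in 1 of the 2. Cln3, a lysosomal membrane protein gene outside the rule for named genes and chosen after seeing its values, measured 38.0 to 42.9 TPM in BMMs and 36.9 to 41.0 TPM in osteoclasts and was not called as deposited. It was called lower after median-ratio scaling (log2 fold change -0.28, limma adjusted p = 0.0075), and it was the 1 CLEAR-list gene with the full element.

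Windows were found for 29 of the 36 CLEAR genes, 7 of the 9 osteoclast targets, all 5 feedback genes and all 4 members. CACGTG stood in 44.1% of the 34 CLEAR windows and in 2 of the 5 feedback windows, against 7.15% of all 32851 windows. CATGTG stood in 3 of the 10 osteoclast target windows, against 14.2% of all windows, and TCATGTG in 2 of them, against 3.77%. The full CLEAR element stood in 0.326% of all windows. Of the 15 CLEAR genes with CACGTG in a window, 10 were higher and 4 were lower, and of the 14 without it, 4 were higher and 6 were lower. After median-ratio scaling these counts were 6 and 5 with it and 1 and 8 without it. Among all genes tested 45.3% were higher and 23.5% lower as deposited, and 33.5% and 33.6% after that scaling. Whether the calls differ with the motif was not tested. The 9 windows of the members themselves held none of the 4 motifs, which says only that these letters are not in these windows. These shares are descriptions, and a match is not a binding site.

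Targets that MITF controls in other cell types were mostly near 0. Of 14 genes of melanocytes, 4 passed the filter, and the pigment genes Tyr, Tyrp1, Oca2, Slc45a2, Gpr143 and Mc1r were listed at 0 in all 6 libraries. Of 10 genes of mast cells in the table, none reached a mean of 1 TPM, and their summed level was 2.28 to 2.74 TPM in BMM libraries and 0.420 to 0.681 TPM in osteoclast libraries. The Mitf level of 32.2 to 40.3 TPM thus stood beside mast cell and melanocyte markers at or near 0. Among the melanocyte list, Met, the receptor of hepatocyte growth factor, rose from 1.07 ± 0.181 TPM to 15.0 ± 1.94 TPM (log2 fold change 2.95). Rab27a, a GTPase of melanosome and secretory granule transport, fell from 7.75 ± 0.798 TPM to 0.928 ± 0.112 TPM (log2 fold change -2.18; SD, n = 3). Cdk2, a kinase of the cell cycle, had a log2 fold change of 0.10 and was not called. Slc24a5, a cation exchanger of melanosomes, had one of 0.32 and lost its call after median-ratio scaling and without BMM replicate 3.

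Genes of the nutrient sensor that holds the family at the lysosome went in both directions. Of 25 tested, 6 were higher, 7 were lower and 12 did not pass the test, at a median log2 change of 0.04, and after median-ratio scaling 2 were higher and 10 lower. As deposited 52.0% of the list was called, against 68.9% of all genes tested (45.3% higher and 23.5% lower). After median-ratio scaling 33.5% of all genes tested were higher and 33.6% lower. The list includes the feedback genes described above. Sesn1 and Sesn3, sestrins that restrain mTORC1, fell, Sesn1 from 182 to 189 TPM in BMMs to 46.8 to 51.1 TPM in osteoclasts (log2 fold change -1.90, adjusted p = 4.9e-08 from limma) and Sesn3 with a log2 fold change of -1.44. The other sestrin, Sesn2, chosen after its values were seen, had a mean of 30.9 TPM in both groups and was not called as deposited, but it was called lower after median-ratio scaling (log2 fold change -0.21). Nprl3, a subunit of the complex that switches off RagA and RagB, rose from 5.04 ± 0.210 TPM to 9.78 ± 0.561 TPM (SD, n = 3; log2 fold change 0.83). Rheb, the GTPase that switches on mTORC1, had a log2 fold change of 0.38, a call that was lost after median-ratio scaling. Mtor itself, chosen after its values were seen, measured 13.1 to 13.7 TPM in BMMs and 13.5 to 22.01 TPM in osteoclasts and was not called.

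Kinases and phosphatases that act on the family went in both directions. Of 25 genes of kinases, phosphatases and carriers, 14 were higher, 6 were lower and 5 did not pass the test, and after median-ratio scaling 8 were higher and 10 lower. Among all genes tested 45.3% were higher and 23.5% lower as deposited, and 33.5% and 33.6% after scaling, so the share called lower as deposited was near the background. Rps6ka1, Mapk14 and Mapk3, kinases of the MAP kinase pathways, fell. Rps6ka1 (RSK1) went from 123 ± 3.61 TPM to 54.7 ± 3.74 TPM, Mapk14 (the p38α kinase, which acts on MITF in osteoclasts) from 134 ± 2.58 TPM to 76.5 ± 7.83 TPM and Mapk3 (ERK1) from 291 ± 3.70 TPM to 195 ± 9.91 TPM (SD, n = 3). Their log2 fold changes were -1.16, -0.81 and -0.58. Prkcb, a protein kinase C that acts on TFEB in mouse osteoclasts and was chosen after its values were seen, was called lower at a log2 fold change of -0.46. Map4k3, a kinase of amino acid sensing that phosphorylates TFEB, rose from 19.0 ± 0.246 TPM to 46.2 ± 2.82 TPM (SD, n = 3), and its log2 fold change was 1.24. The phosphatase genes Ppp2ca, the catalytic subunit of PP2A, and Ppp3cb, a catalytic subunit of calcineurin, rose, with log2 fold changes of 0.66 and 0.57. Ppp3ca, another calcineurin catalytic subunit in the list, was chosen after its values were seen. Its log2 fold change of -0.17 was not called as deposited, and it was called lower after median-ratio scaling (-0.38, limma adjusted p = 0.0019).

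Spi1, Fos and Nfatc1, which encode partners of MITF in osteoclasts, rose. Of 11 partners and repressors tested, 7 were higher, 2 were lower and 2 did not pass the test, at a median log2 change of 0.42, and after median-ratio scaling 5 were higher and 3 lower. The shares among all genes tested were 45.3% higher and 23.5% lower as deposited, and 33.5% and 33.6% after scaling. Spi1, which encodes PU.1, measured 349, 354 and 345 TPM in BMM replicates 1, 2 and 3 and 695, 728 and 734 TPM in the osteoclast replicates, a log2 change of 1.04 (SE 0.04, limma adjusted p = 3.8e-07). Fos, an AP-1 factor that osteoclasts require, rose from 47.7 ± 2.89 TPM to 323 ± 16.7 TPM (SD, n = 3; log2 fold change 2.73). Every Spi1 value lay above every value of the family. Pias3, which binds MITF and represses its activity in mast cells and melanocytes, was lower, at 12.1 ± 1.35 TPM in osteoclasts against 19.2 ± 1.43 TPM in BMMs (SD, n = 3; log2 fold change -0.63). Mef2c, a MADS-box factor, had a log2 fold change of -1.83, also called. Ep300, an acetyltransferase that coactivates MITF, had one of -0.38 and was not called (adjusted p = 0.090 from limma), although it was called lower after median-ratio scaling. It was called without osteoclast replicate 3 (log2 fold change -0.51) and also without osteoclast replicate 2, where the change shrank to -0.15, so much of the size rested on that library.

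Among other factors with the same kind of DNA-binding domain, Mycl and Myc rose and several partners of MAX fell. Of 16 bHLH leucine zipper genes tested, 5 were higher, 6 were lower and 5 did not pass the test, at a median log2 change of -0.11, and after median-ratio scaling 4 were higher and 9 lower. As deposited, 68.8% of the list was called in either direction, against 68.9% of all genes tested, so that total was near the background. The likeness holds for that total only. By direction, 45.3% of all genes tested were higher and 23.5% lower as deposited, and 33.5% and 33.6% after median-ratio scaling. Mycl (L-Myc), at 0.196 ± 0.0117 TPM in BMMs, reached 26.4 ± 1.09 TPM in osteoclasts (SD, n = 3), a log2 change of 4.52 (SE 0.08, limma adjusted p = 5.2e-09). Myc measured 20.3, 21.0 and 18.9 TPM in BMM replicates 1, 2 and 3 and 129, 126 and 134 TPM in the osteoclast replicates, a log2 fold change of 2.64. In osteoclasts Mycl, at 25.6 to 27.6 TPM, thus overlapped with Tfeb, and every Myc value lay above every value of the family. Tfap4, another activator and repressor at E-boxes, rose with a log2 fold change of 1.20. The MAX partners Mxd4, Mxd3 and Mxd1, which oppose MYC, fell, with log2 fold changes of -1.64, -1.28 and -0.55.

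**Figure D5:**
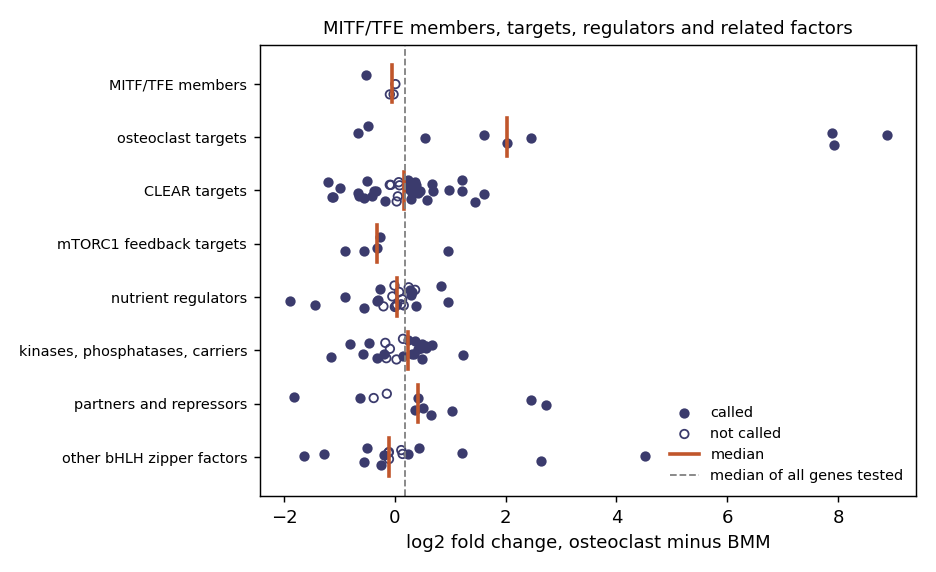
log2 fold change (osteoclast minus BMM) of each tested gene of the family, its targets, regulators and related factors. Filled points passed the test, open points did not, red bars are list medians, the dashed line is the median of all genes tested (0.19), and the vertical place of a point within its row has no meaning. The members lie between -0.51 and 0.01, while the osteoclast targets reach 8.88 and the other bHLH zipper factors range from -1.64 to 4.52.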

How the data were processed

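RNA of 3 BMM and 3 osteoclast cultures was sequenced. By the methods and the submitters' processing notes, the authors used bcl2fastq 2.17, Trimmomatic 0.36 and STAR 2.5.2b on mm10, extracted gene hit counts, and deposited TPM. The sources used here do not name the counting tool, its strand setting or the step to TPM. TPM sums to 1000000 in each library and keeps no depth, so counting error is not given. After a filter at a mean of 1 TPM, limma 3.58.1 (R 4.3.3) was fitted to log2(TPM + 1) (intensity trend, two-sided, Benjamini-Hochberg adjustment over all 12325 genes, threshold 0.05). The fit was also run on simulated data in which few genes differed. It was thus not tested for changes as broad as those here. The members and lists were chosen with earlier results of these data known. Named genes were the members, all osteoclast targets, the 3 largest and 3 smallest log2 fold changes of each other list outside the marker lists, and the 3 genes most like each member (60 in all, of which 1 is not reported here). Any other is marked, except markers and listed genes at 0. Coordinates come from GENCODE vM21, which matched 48970 identifiers. Castor1, Castor2 and Mcpt6, listed here, matched no gene name and were not analysed here. Python 3.11.15, pandas 2.3.3, NumPy 2.4.6, SciPy 1.17.1 and matplotlib 3.10.9 were used. Alternatives covered pseudocounts, filters, scalings, a fold threshold, a fit without the trend, one with a replicate block, and omission of each library in turn.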

Additional observations from a re-analysis of the deposited data

How the results depend on the processing

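Tfe3 was lower under all pseudocounts, filters and scalings tried, without the trend, with the replicate block and without each library (log2 fold change -0.56 to -0.46 without 1 library), and it left the call only under a required absolute log2 fold change of 1 (-0.51). Mitf changed sign under median-ratio scaling (-0.20), quantile normalization (-0.20) and rescaling without mitochondrially encoded and the top 20 genes (-0.16), and ranged from -0.088 to 0.070 without 1 library. Tfeb was called lower under these scalings (-0.30, -0.29 and -0.26) and ranged from -0.17 to -0.039 without 1 library, and Tfec from -0.097 to 0.084. Median-ratio scaling lowers all genes together by construction. In that order of scalings the other reversed values were -0.11, -0.11 and -0.068 for Cdk2, -0.19, -0.19 and -0.15 for Gpalpp1 (-0.090 to 0.098 without 1 library), -0.18, -0.18 and -0.14 for Ids (-0.071 to 0.085) and -0.14, -0.16 and -0.12 for Slc12a2 (-0.045 to 0.075). Without osteoclast replicate 3, Cep83os and Mad2l1 gave 0.076 and Slbp 0.068. Under median-ratio scaling and quantile normalization, CLEAR genes called higher numbered 9 and 11, kinases and phosphatases 8 and 9 higher with 10 lower in both, and nutrient regulators 2 higher in both (2 also without the top genes), with 11 lower under quantile normalization. Melanocyte genes called higher numbered 1 under all 3 scalings and 1 to 2 without 1 library. A filter at 5 TPM left 1 lower osteoclast target and 0 lower melanocyte genes, since Bcl2 and Rab27a were then not tested, and no filter gave 1 higher and 4 lower mast cell genes. Requiring an absolute log2 fold change of 1 left 1673 higher and 941 lower genes in all. It left 0 lower osteoclast targets, 4 higher and 3 lower CLEAR genes, 0 feedback genes in either direction, 1 higher melanocyte gene, 0 higher and 2 lower nutrient regulators, 1 higher and 1 lower kinase or phosphatase, 3 higher and 1 lower partner, and 3 higher and 2 lower bHLH zipper genes. For these counts the cause of other moves was not tested.

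The groups share replicate numbers, but same-numbered libraries did not deviate together (correlations of -0.05, -0.00281 and -0.07). Libraries with different numbers gave correlations of -0.07 to 0.10. With 3 libraries in each group, these values show no pairing by number but cannot exclude one. With the replicate block, 5502 genes were higher and 2821 lower, against 5585 and 2901 without it, Tfe3 kept a log2 fold change of -0.51 (adjusted p = 5.8e-04 from limma), and the other members stayed uncalled. Among the other named genes, the block ended the call of Fnip1 (adjusted p = 0.057 from limma) and changed no other call. Read depth is unknown from TPM, so its limit on low genes cannot be given.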
